A study of Mus musculus with 12 samples.

Results

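The transcriptomes of the mouse mammary cancer cell lines D2.OR and D2A1 were compared after culture in 3D on growth-factor-reduced Matrigel, with 3 libraries a line. These 6 of the 12 libraries of the series were chosen by their labelled line and culture alone, and the other 6 hold the same lines on plastic (2D). The lines were derived from separate tumours of the same kind in different mice, and each is a single cell line, so a difference between them cannot be split into tumour, mouse and later drift in culture. In 3D, single cells lay on solidified Matrigel in medium with little horse serum, hydrocortisone, cholera toxin, insulin, antibiotics and some added Matrigel, which both lines received, and the 2D cells grew on plastic. For the RNA samples the study's methods point to their section on cell culture, where cells in 2D had DMEM with high glucose. The account of the Matrigel assay instead puts the cells on plastic in the medium of the 3D culture. Which medium the 2D RNA samples had is thus unclear, and by the first account culture and medium cannot be told apart. Wells were pooled for each RNA sample. No treatment, transgene or age sets the groups apart. Replicate numbers 1 to 3 are batches 1 to 3 in the labels, each batch on its own sequencing lane (8, 6 and 7), and nothing in the labels says that the batches were separate thaws, so p-values measure the spread between these samples. Values for 3 libraries are given below in the order of batches 1, 2 and 3.

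Matrigel is a basement membrane extract, rich in laminin, collagen IV and nidogen, and cells on it attach mainly through integrins. D2.OR is used as a model of cells that stay dormant after they reach a distant organ, and D2A1 as its proliferative, metastatic counterpart. Dormancy of tumour cells is studied through matrix signals, growth factor receptors, p53 and the cell cycle, and some of the gene lists below follow these themes. Other lists, such as Hox, imprinted and transporter genes, do not. All lists were written with earlier results of these data known. Levels are CPM, which are counts scaled to a common library size and composition, or TPM where genes are compared with one another, since TPM also corrects for transcript length. Because these are bulk samples, fewer cells of a kind and less RNA per cell cannot be told apart.

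The 3D libraries held 61440030 to 66087229 counts each. The first principal component of the 6 libraries separated the lines and carried 79.6% of the variance. The second carried 11.8% and set batch 1 of both lines above batches 2 and 3. Correlations of log2 CPM within a line were 0.970 to 0.977 for pairs with batch 1 and 0.989 to 0.993 for batch 2 against batch 3. Of the mammary epithelial markers, 7 passed the filter on low counts, and their summed level was 94.5 to 223 TPM in D2A1 and 428 to 882 TPM in D2.OR. Krt5, Krt19, Elf5, Csn2 and Wap, which mark basal, luminal or secretory mammary cells, stayed below the filter. Of 13 immune markers, 10 were below the filter, Ptprc, Cd3e, Adgre1 and Itgam among them. Of these 10, Fcer1g reached 1.14 TPM in a 3D library and no other exceeded 0.2 TPM. The other 3 passed it, and their summed level of 40.6 to 192 TPM in D2A1 and 13.2 to 57.1 TPM in D2.OR was led by Cd14. The 5 endothelial markers that passed summed to 5.22 to 8.89 TPM in D2A1 and 4.0 to 9.58 TPM in D2.OR. Fibroblast markers summed to 29.8 to 47.3 TPM in D2A1 and 607 to 1995 TPM in D2.OR, through collagen and PDGF receptor genes described below, and whether any other cell was present was not tested.

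With all libraries, most genes tested differed between the lines in 3D, and large differences were more often towards a higher level in D2.OR. It was not most genes in some other fits, such as those without batch 2 or 3 or without a term for the batch. Of 52550 genes in the files, 16823 passed the filter on low counts, and 9044 of them (53.8%) differed at an adjusted p under 0.05. Of these, 4655 were higher in D2.OR (27.7% of genes tested) and 4389 were lower (26.1%). Under a stricter rule, with at least a 4-fold difference and the same direction in all 3 batches, 1650 genes lay higher in D2.OR (9.81%) and 677 lower (4.02%). The median log2-fold change over all genes was 0.00 and the median absolute log2-fold change was 0.61. In 8988 of the 9044 genes called, each batch on its own gave the same direction. Without batches 1, 2 and 3 in turn, 9581, 5273 and 5975 genes were called, and with only the 3D libraries 9255. Every list count below is to be set against the 27.7% and 26.1% of all genes called higher and lower. By the 4-fold rule these shares of all genes are 9.81% and 4.02%. List counts that moved by over 1.5 times without a batch or a library are given again without it. No fitted fold is given where all 3 libraries of a line held at most 3 counts, and fitted values of genes just above this floor, such as Ptprd, Adgrl2, Krt7, Bmp2 and Cln8, also depend on the prior count. All log2-fold changes below are D2.OR minus D2A1 in 3D with their SE from edgeR's quasi-likelihood test, and adjusted p-values are Benjamini-Hochberg over all genes tested.

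**Figure D1:**
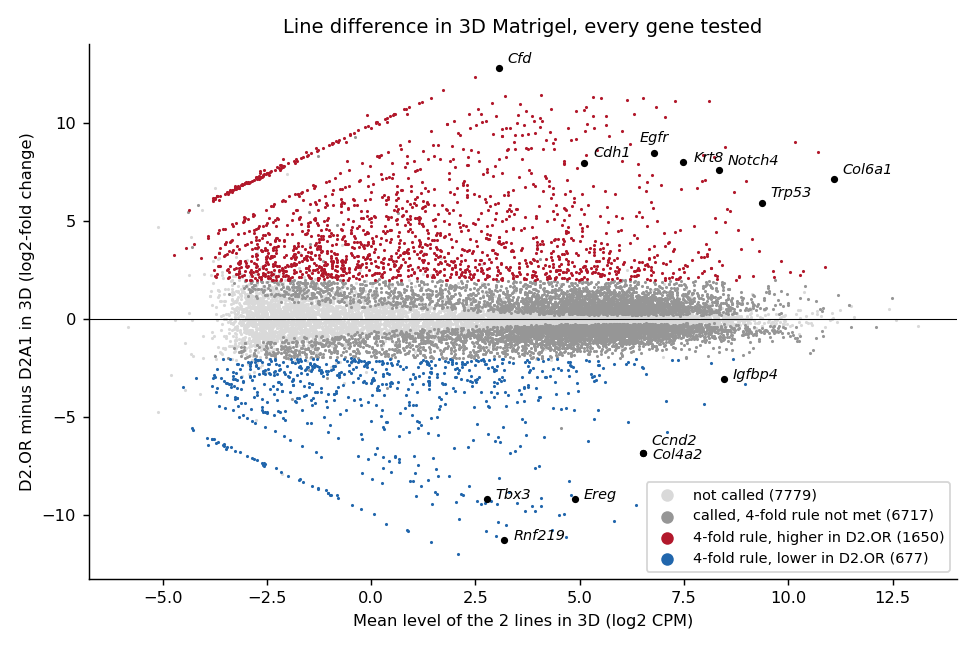
Every gene tested in 3D except 1 that was at 0 in all 6 libraries, with the mean level of the lines in log2 CPM on the x axis and the log2-fold change of D2.OR minus D2A1 on the y axis. The 1650 genes higher and 677 genes lower in D2.OR by the 4-fold rule are coloured and the other genes are grey. Fitted values beyond about 10 on the y axis come from genes with almost no counts in a line and depend on the added prior count.

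Among the genes named by the size of their difference were several that were nearly silent in one line. Cfd, which encodes the complement protease factor D, had no count in any D2A1 library and 1.24, 43.9 and 4.73 CPM in D2.OR. D2.OR was thus at least 375-fold higher, taking 3 counts in each D2A1 library as the floor, and its own libraries spread widely, with batch 2 far above the others. Without D2.OR 3D replicate 2 the limit for Cfd was at least 67.3-fold. Armcx1, an armadillo-repeat gene of the X chromosome, also had no count in D2A1 and lay at 7.94, 15.9 and 9.58 CPM in the other line, at least 251-fold higher. Cdh15, which encodes M-cadherin, a muscle cell adhesion molecule, was at 0.0425, 0.0927 and 0.0588 CPM in D2A1, against 59.96, 271 and 216 CPM in D2.OR (log2-fold change 11.31 ± 0.52, adjusted p = 6.83e-07). The receptor phosphatase gene Ptprd was at 0.0709, 0.0309 and 0 CPM against 87.9, 91.4 and 92.1 CPM (11.31 ± 0.43, adjusted p = 2.3e-07). The latrophilin gene Adgrl2, a receptor of cell adhesion, was at 0.0567, 0.0154 and 0.103 CPM against 141, 144 and 136 CPM (11.18 ± 0.38, adjusted p = 1.23e-07). In these genes the lines did not come near each other in any batch, and Ptprd and Adgrl2 had nearly equal levels in all 3 D2.OR libraries. Cyp2f2, a cytochrome P450 gene, was at 0, 0.0463 and 0.0588 CPM in D2A1, against 7.92, 124 and 106 CPM in D2.OR, where batch 1 was the lowest. Fam198b and Hmgn3, which encodes a nucleosome-binding protein, had 2 counts and 1 count over the 3 D2A1 libraries, and means of 33.3 ± 5.95 and 18.6 ± 3.5 CPM (SD, n = 3) in D2.OR. Adgrl2 had a log2-fold change of 11.77 without D2A1 3D replicate 3. Ptprd had a log2-fold change of 12.30 without D2A1 3D replicate 1.

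The genes with the largest difference in the other direction were as sharply divided. Hs6st2, a heparan sulfate sulfotransferase gene, was at 45.1, 53.6 and 54.9 CPM in D2A1, against 0.0332, 0 and 0.0315 CPM in D2.OR, a ratio of 2389 (95% counting interval 933 to 8768). Tmem98 had 33.2, 45.1 and 42.1 CPM in D2A1 against 0.0332, 0.0158 and 0.0158 CPM in D2.OR, a ratio of 1869 (95% counting interval 729.9 to 6863). Both were at 1 or 2 counts or none in each D2.OR library, so these intervals, which cover counting error only, are wide. Foxr2, a forkhead factor gene, was at 14.6, 16.2 and 16.7 CPM in D2A1 and had 1 count over the 3 D2.OR libraries. Rnf219, Irak1bp1, Khdrbs3 and Morc1 had 1, 1, 2 and 2 counts there, against D2A1 means of 18.3 ± 1.47, 13.4 ± 0.652, 18.8 ± 1.01 and 16.5 ± 2.76 CPM (SD, n = 3). Olfm1, a secreted olfactomedin gene, was at 158, 88.1 and 94 CPM against 0.199, 0.0316 and 0.063 CPM (-10.28 ± 0.56, adjusted p = 1.63e-06). Olfm1 had a log2-fold change of -11.16 without D2.OR 3D replicate 1.

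Genes restricted to 1 line were then counted, with 3 counts or fewer in every 3D library of a line and at least 10 CPM in every 3D library of the other. There were 23 such genes expressed in D2.OR and 13 expressed in D2A1, which describes the contrast and was not tested. Of these, 13 and 9 were also at the floor in 2D. The D2.OR genes included the adhesion gene Flrt2, the desmosomal cadherin gene Dsg2, the scavenger receptor gene Cd163, the Wnt receptor gene Fzd8, the guidance ligand gene Sema3e and the factors Pax6 and Lmo1, of which Flrt2, Cd163, Pax6 and Lmo1 were picked from the 23 after their values were seen. Cd163 is best known in macrophages, and its level of 12.4, 16.9 and 23.1 CPM in D2.OR stood beside immune markers that were mostly below the filter. The D2A1 genes included Hs6st2, Foxr2, Tbx3 and Peg3. In total, 404 of the 1650 genes of the 4-fold rule that were higher in D2.OR were at the floor in D2A1, and 190 of the 677 lower were at the floor in D2.OR. Runs of neighbouring genes at the floor in D2A1 were found for Hoxc4, Hoxc5 and Hoxc6 on chromosome 15, for Serpina3g, Serpina3h and Serpina3i on chromosome 12 and for Klrb1b, Klrb1c and Gm44511 on chromosome 6. The Serpina3 and Klrb1 genes belong to families with close copies, so their counts are less certain.

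Peg3 and Usp29 show a difference that 2 neighbours shared, and the promoter of Peg3 is therefore given. Peg3 encodes a zinc finger protein, Usp29 a ubiquitin protease, and both are imprinted genes read from the paternal copy in opposite directions. In D2A1, Peg3 was at 20.1, 33.8 and 37.9 CPM, and in D2.OR at 0.0497, 0.0474 and 0 CPM, a ratio of 948 (95% counting interval 435 to 2583). Usp29 was at 0.383, 1.02 and 1.07 CPM in D2A1 and had no count in D2.OR, at least 17.1-fold lower. Both genes were at the floor in every D2.OR library. The window from 250 bases before to 50 bases after the Peg3 start, taken from RefSeq on GRCm38.p6 at chr7:6730370-6730669 on the minus strand, holds 13 CpG pairs, shown in capitals, and overlaps the same window of Usp29 (chr7:6730333-6730632, plus strand) by 263 bases:
Peg3: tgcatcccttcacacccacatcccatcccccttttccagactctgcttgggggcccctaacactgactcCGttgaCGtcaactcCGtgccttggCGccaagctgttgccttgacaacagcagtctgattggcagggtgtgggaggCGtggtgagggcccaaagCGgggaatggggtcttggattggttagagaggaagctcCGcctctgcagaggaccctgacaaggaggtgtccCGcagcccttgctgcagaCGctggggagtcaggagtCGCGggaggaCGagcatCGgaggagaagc
A comparison of promoter CpG content between line-restricted and other genes was void, because the RefSeq table matched 69.6% and 69.2% of the genes restricted to D2.OR and D2A1 and 66.3% of all genes tested, short of the 80% that such a comparison needs.

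By abundance, matrix and metal-binding genes led the D2.OR side. Spp1, which encodes the secreted matrix protein osteopontin, was at 3926, 4079.7 and 2809 CPM in D2A1, against 6794, 6681 and 10213 CPM in D2.OR (log2-fold change 1.09 ± 0.32, adjusted p = 0.0173), or 4684 ± 973 against 10440.3 ± 2433 TPM (SD, n = 3). The Spp1 call was lost without batch 2 (adjusted p = 0.0846), batch 3 (0.131), D2A1 3D replicate 3 (0.0763) or D2.OR 3D replicate 3 (0.0621). The metallothionein genes Mt1 and Mt2, which bind zinc and copper, were 3.19-fold and 4.4-fold higher in D2.OR, at 4994 ± 2271 and 6688 ± 2420.0 TPM there. Sparc, a collagen-binding matrix gene, was at 809, 430.3 and 374 CPM against 3412, 3201 and 3141 CPM (2.66 ± 0.29, adjusted p = 1.0e-04), with the lines fully apart. Vim, the mesenchymal intermediate filament gene, was at 2529.7, 951 and 932 CPM against 4242, 2827 and 2445 CPM (1.25 ± 0.24, adjusted p = 0.00196), and batch 1 of D2A1 lay above D2.OR batch 3. The largest TPM differences towards D2A1 were those of Gapdh (3.01-fold lower in D2.OR), Ptma (3.25-fold), Ppia (1.83-fold), Rpl34 (1.76-fold) and Gm43940 (3.35-fold). These genes have many processed copies in the genome, so reads may be split between copies and the values are uncertain. The Ppia call was lost without batch 3 (adjusted p = 0.063).

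Epithelial genes were mostly higher in D2.OR. Of 37 genes of epithelial junctions and their factors, 19 were higher and 2 lower, 13 were higher and 0 lower by the 4-fold rule, and the list median was 1.03. Cdh1, which encodes E-cadherin of adherens junctions, was at 0.425, 0.154 and 0.162 CPM in D2A1, against 152, 23.7 and 30.6 CPM in D2.OR, 255-fold higher (adjusted p = 2.66e-07). Batch 1 of D2.OR stood well above the other D2.OR libraries, and all 3 were far above D2A1. Dsp, which encodes the desmosomal plaque protein desmoplakin, was at 1.39, 1.92 and 3.65 CPM against 109, 68.3 and 83 CPM (5.25 ± 0.35, adjusted p = 5.65e-06). Dsg2, a desmosomal cadherin gene, had 3 counts over all D2A1 libraries and 23.6, 17.6 and 27.8 CPM in D2.OR, a ratio of 1557 (95% counting interval 533 to 7555). Pkp1, which links desmosomes to keratin, was 167-fold higher (adjusted p = 4.1e-06), and Epcam, a surface adhesion molecule of epithelia, was 18.8-fold higher (adjusted p = 2.47e-05) from 0.184, 0.154 and 0.118 CPM to a low level of 3.02, 1.79 and 4.08 CPM. The tight junction gene Cldn3 and the epithelial factor gene Elf3 were the 2 lower genes, and were named after their values were seen (-1.98 ± 0.47, adjusted p = 0.00661, and -1.92 ± 0.30, adjusted p = 6.33e-04). The Cldn3 call was lost without batch 2 or 3 (adjusted p = 0.0969 and 0.0784), and without D2A1 2D replicate 1 the list had 4 lower genes. Cdh1 and Pkp1 had log2-fold changes of 7.31 and 8.02 without D2A1 3D replicate 1.

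Of 9 keratin genes, 6 were higher in D2.OR and 0 lower, all 6 by the 4-fold rule. Krt8, the type II keratin of simple epithelia, was at 2.24, 0.819 and 1.12 CPM in D2A1, against 217, 309.6 and 538 CPM in D2.OR, 264-fold higher (adjusted p = 4.37e-06), with no overlap. Its partner Krt18, named after its values were seen, did not pass the test at 159, 76.1 and 72.2 CPM against 89.4, 163 and 254 CPM (0.74 ± 0.39, adjusted p = 0.133), and its batch differences were -0.83, 1.10 and 1.82. Krt18 passed the test as higher without batch 1 (1.44, adjusted p = 0.000428), D2A1 3D replicate 1 (1.17, 0.0228) or D2.OR 3D replicate 1 (1.23, 0.00439), and without batch 1 the list had 1 lower gene. Per length, D2A1 held 1.39 ± 0.811 TPM of Krt8 and 136 ± 71 TPM of Krt18, and D2.OR held 353 ± 156 and 224 ± 104 TPM (SD, n = 3), so Krt18 lay well above Krt8 only in D2A1. Krt7 was at 0.0567, 0 and 0.0294 CPM against 3.53, 2.86 and 2.69 CPM (6.81 ± 0.68, adjusted p = 5.58e-05). The basal keratin gene Krt14 was low in both lines, at 0, 0.108 and 0.0441 CPM against 5.04, 0.854 and 1.62 CPM (5.26 ± 0.97, adjusted p = 0.00166). Krt14 had a log2-fold change of 4.18, 6.96 or 4.47 without D2A1 3D replicate 1 or 2 or D2.OR 3D replicate 1, in that order.

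Mesenchymal genes were also mostly higher in D2.OR. Of 16 mesenchymal genes and factors of epithelial-mesenchymal transition, 11 were higher and 2 lower, 7 and 1 by the 4-fold rule, with a median of 1.60. The factors were divided. Zeb1, a repressor of E-cadherin, was at 42.3, 33.8 and 36.8 CPM in D2A1, against 8.75, 2.24 and 2.65 CPM in D2.OR, 9.29-fold lower (adjusted p = 1.15e-04), while the related Zeb2 was at 54.1, 64.7 and 58.7 CPM against 244, 213 and 231 CPM, 3.9-fold higher (adjusted p = 6.32e-06). Snai2, another repressor of this group, was at 8.35, 5.24 and 5.97 CPM against 56.2, 48.1 and 33.7 CPM (2.81 ± 0.19, adjusted p = 5.32e-06), and Prrx1, a homeobox factor of mesenchyme, at 71.2, 102 and 87.3 CPM against 825, 474 and 482 CPM (2.77 ± 0.24, adjusted p = 2.4e-05). None of these 4 genes overlapped between the lines, but they were picked by small p-values or the 4-fold rule. The share of all genes without overlap was not counted. Fap, the fibroblast activation protein gene, was 194-fold higher in D2.OR (adjusted p = 1.56e-05). The PDGF receptor genes Pdgfra and Pdgfrb, which bind platelet-derived growth factors, were 5.42-fold and 13.2-fold higher (adjusted p = 4.15e-04 and 0.00173). Of 9 fibroblast markers, 6 were higher and 1 lower, all by the 4-fold rule. The 1 lower gene was Pi16, at 1.01, 1.54 and 0.441 CPM against 0.182, 0.126 and 0.0788 CPM (-2.86 ± 1.06, adjusted p = 0.0458). Its call was lost without batch 2 or 3, any 1 of the 3D libraries or replicate 2 of either line in 2D (adjusted p = 0.0517 to 0.248), and without batch 1 there were 2 lower markers. In the mesenchymal list 1 gene was lower without batch 2. D2.OR held more of both Cdh1 and Vim than D2A1 within each batch. Fap had a log2-fold change of 8.31 or 7.0 without D2A1 3D replicate 1 or 2, in that order. Pdgfrb had a log2-fold change of 4.90 without D2A1 3D replicate 1. Zeb1 had a log2-fold change of -3.85 without D2.OR 3D replicate 1.

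**Figure D2:**
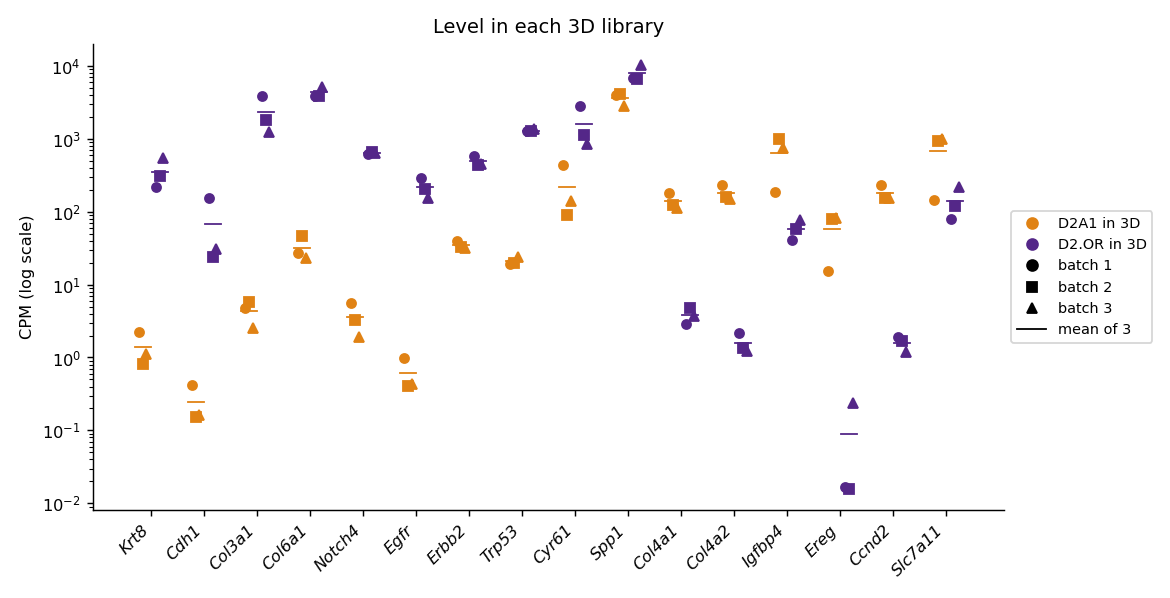
CPM of 16 genes in each 3D library on a log axis, with colour for the line, a marker shape for the batch and a bar for the mean of 3 libraries. For Krt8, Cdh1, Col3a1, Col6a1, Notch4, Egfr, Erbb2, Trp53, Cyr61 and Spp1 the D2.OR libraries lie above the D2A1 libraries, and for Col4a1, Col4a2, Igfbp4, Ereg and Ccnd2 they lie below. Slc7a11 overlaps, with batch 1 of D2A1 under batch 3 of D2.OR.

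Contractile genes were mostly higher in D2.OR as well. Of 20 genes of the contractile cytoskeleton, 16 were higher in D2.OR and 1 lower, 7 and 0 by the 4-fold rule, with a median of 1.32. Without batch 2, 10 were higher. Cnn2, which encodes the actin-binding protein calponin 2, was at 127, 63.2 and 55.3 CPM against 578, 529.8 and 337 CPM (2.60 ± 0.23, adjusted p = 2.41e-05). Acta2, the smooth muscle actin gene, was at 0.255, 0.0927 and 0.162 CPM against 14.3, 40.01 and 3.37 CPM, with a wide spread in D2.OR (6.50 ± 1.02, adjusted p = 6.72e-04). The 1 lower gene was the non-muscle myosin gene Myh10, at 229, 311 and 326 CPM against 82.5, 112 and 109.7 CPM (-1.51 ± 0.09, adjusted p = 3.6e-06), whereas its paralogue Myh9 was 2.47-fold higher (adjusted p = 1.57e-04). Of 20 targets of YAP, a co-activator that responds to cell spreading and tension, 13 were higher and 1 lower, with a median of 0.89. The lower count was 3 without batch 1 and 2 without D2A1 2D replicate 1 or 3 or D2A1 3D replicate 1. Cyr61, a secreted matricellular gene, was at 430.2, 88.8 and 140.4 CPM against 2827, 1122 and 859.8 CPM (2.98 ± 0.40, adjusted p = 3.07e-04), and its relative Ctgf at 65.8, 2.5 and 4.26 CPM against 1474, 485 and 189 CPM (5.61 ± 0.83, adjusted p = 4.88e-04). In both genes batch 1 was the highest of its line, and D2.OR was above D2A1 within every batch. Acta2 had a log2-fold change of 5.86, 5.33 or 7.13 without D2A1 3D replicate 2 or D2.OR 3D replicate 2 or 3, in that order. Ctgf had a log2-fold change of 6.59 or 5.01 without D2A1 3D replicate 1 or 2, in that order.

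Genes of the interstitial matrix were mostly higher in D2.OR, many by large amounts. Of 28 genes of interstitial matrix, 20 were higher in D2.OR and 2 lower, 17 and 0 by the 4-fold rule, against 9.81% and 4.02% of all genes, and the median was 2.61. Col6a1 and Col6a2, chains of the beaded collagen VI, were at 27.4, 46 and 23.3 and 7.83, 13.2 and 7.37 CPM in D2A1, against 3894, 3897 and 5149 and 2976, 2896 and 4159.5 CPM in D2.OR. They were 141-fold and 375-fold higher (adjusted p = 1.45e-05 and 1.78e-06). Col3a1, a fibrillar collagen gene, was at 4.81, 5.81 and 2.54 CPM against 3848, 1793 and 1248 CPM (9.03 ± 0.57, adjusted p = 3.75e-06), and Col5a3 at 1.3, 1.79 and 1.44 CPM against 472, 458 and 556 CPM (8.37 ± 0.44, adjusted p = 1.48e-06). Col1a1, the main chain of collagen I, was at 2.82, 0.664 and 0.603 CPM against 171, 145 and 25.5 CPM (6.39 ± 0.65, adjusted p = 5.79e-05). On a log scale, the D2.OR libraries of each of these collagens lay above every D2A1 library by more than the spread within a line. Tnc, the matrix glycoprotein tenascin C gene, was 115-fold higher (adjusted p = 7.05e-06). The 2 lower genes, named after their values were seen, were the lysyl oxidase gene Loxl4 (-1.11 ± 0.11) and the proteoglycan gene Bgn (-1.78 ± 0.61). Without D2A1 3D replicate 1 the log2-fold change of Bgn was -0.63. The Bgn call was lost without batch 2 (adjusted p = 0.0957), batch 3 (0.0682), D2A1 2D replicate 2 (0.0501), D2A1 3D replicate 1 (0.183) or D2.OR 3D replicate 1, 2 or 3 (0.112, 0.0817 and 0.0802), and with only the 3D libraries (0.0501).

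Basement membrane genes, which encode the kind of proteins Matrigel supplies, were split by chain. Of 23, 11 were higher in D2.OR and 3 lower, 6 and 3 by the 4-fold rule, with a median of 0.84. The 3 lower genes were all collagen IV chains. Col4a1 was at 183, 122 and 113 CPM in D2A1, against 2.88, 4.77 and 3.75 CPM in D2.OR, 37.7-fold lower (adjusted p = 7.44e-05). Col4a2, its partner, which is read from the same start region in the other direction, was at 233, 160.4 and 150.2 CPM against 2.15, 1.36 and 1.24 CPM, 114-fold lower (adjusted p = 1.57e-07). Col4a6 was at 8.41, 1.51 and 1.12 CPM against 0.133, 0.0158 and 0.0315 CPM (-5.77 ± 0.47, adjusted p = 1.6e-05). In these 3 genes, which had met the 4-fold rule, no D2.OR library reached the level of any D2A1 library. The 4 laminin genes that met the 4-fold rule were higher, with Lama4 at 0.496, 0.525 and 0.382 CPM against 142, 142 and 101 CPM (8.10 ± 0.39, adjusted p = 8.42e-07) and Lama2, Lama3 and Lamb3 at log2-fold changes of 4.76, 4.15 and 4.10. The nidogen genes Nid1 and Nid2, whose products link laminin to collagen IV, were 5.86-fold and 58.2-fold higher (adjusted p = 0.0045 and 1.34e-05). The Nid1 call was lost without batch 2 (adjusted p = 0.0547). Lama2, Lama3 and Nid2 had log2-fold changes of 5.67, 5.06 and 7.02 without D2A1 3D replicate 1.

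Integrins, the receptors for these proteins, were higher in D2.OR for 13 of 21 genes and lower for 2, 7 and 1 by the 4-fold rule, with a median of 1.28. Itgb1, the common β1 chain, named after its values were seen, was at 693, 772 and 736 CPM against 1384, 1281 and 1219.5 CPM (0.82 ± 0.14, adjusted p = 0.00105). The collagen-binding chain gene Itga11 had 4 counts over the D2A1 libraries and 31.6, 22.1 and 6.67 CPM in D2.OR, a ratio of 1012 (95% counting interval 395 to 3718). Itga7, a laminin receptor chain, was at 5.71, 25.1 and 19.1 CPM against 42, 137 and 168 CPM (2.80 ± 0.32, adjusted p = 1.27e-04), and Itga1, a collagen receptor chain, was 4.13-fold higher (adjusted p = 2.39e-04). Itgb4, the laminin-332 receptor chain of hemidesmosomes, was at 3.03, 0.849 and 0.662 CPM against 16, 11.7 and 22.4 CPM (3.67 ± 0.50, adjusted p = 3.16e-04). Itgb7, a chain best known in leukocytes, was 4.3-fold lower (adjusted p = 0.00467), at 2.64, 9.84 and 13.3 CPM against 0.928, 1.36 and 3.34 CPM, and the lines overlapped. Without batch 2 or D2A1 3D replicate 2, 1 integrin gene was lower. Itgb4 had a log2-fold change of 4.33 without D2A1 3D replicate 1.

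Of 31 matrix proteases and inhibitors, 17 were higher in D2.OR and 4 lower, 11 and 3 by the 4-fold rule. The membrane-type metalloproteinase genes Mmp15 and Mmp14 were 6.6-fold and 3.58-fold higher (adjusted p = 9.04e-06 and 1.95e-05), as was Mmp19 (6.4-fold, adjusted p = 2.77e-05). Plau and Plat, which activate plasminogen, were at 8.05, 9.62 and 9.73 and 23.6, 29 and 18.6 CPM in D2A1 and at 99.4, 187 and 128 and 104, 225 and 184 CPM in D2.OR (adjusted p = 2.84e-04 and 3.05e-04). In the opposite direction, the disintegrin protease gene Adam12 was at 62.5, 16.1 and 18.6 CPM against 0.249, 0.142 and 0.126 CPM (-7.47 ± 0.92, adjusted p = 1.87e-04) and the protease inhibitor gene Serpine2 at 5.47, 40.05 and 24.1 CPM against 0.414, 1.75 and 3.99 CPM (-3.53 ± 0.42, adjusted p = 1.46e-04). Among 11 genes of protease-activated receptors and coagulation, 7 were higher and 2 lower. No lower call was left without batch 2, batch 3 or D2.OR 3D replicate 2, and 1 was left without D2A1 3D replicate 2 or 3 or D2.OR 3D replicate 3. F2rl1, the receptor that trypsin-like proteases cleave, was at 0.128, 0.0463 and 0.0588 CPM against 39, 39.6 and 44.5 CPM (8.99 ± 0.29, adjusted p = 9.64e-08), and the membrane serine protease genes Prss8 and St14 were 37-fold and 28.8-fold higher (adjusted p = 3.85e-07 and 1.14e-04), at no more than 6.12 and 1.46 CPM. The thrombin receptor gene F2r was 3.75-fold higher (adjusted p = 8.01e-06). Adam12 had a log2-fold change of -6.85 without D2.OR 3D replicate 1. F2rl1 had a log2-fold change of 9.65 without D2A1 3D replicate 1. Serpine2 had a log2-fold change of -4.12 without D2.OR 3D replicate 3. St14 had a log2-fold change of 5.55 without D2A1 3D replicate 2.

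**Figure D3:**
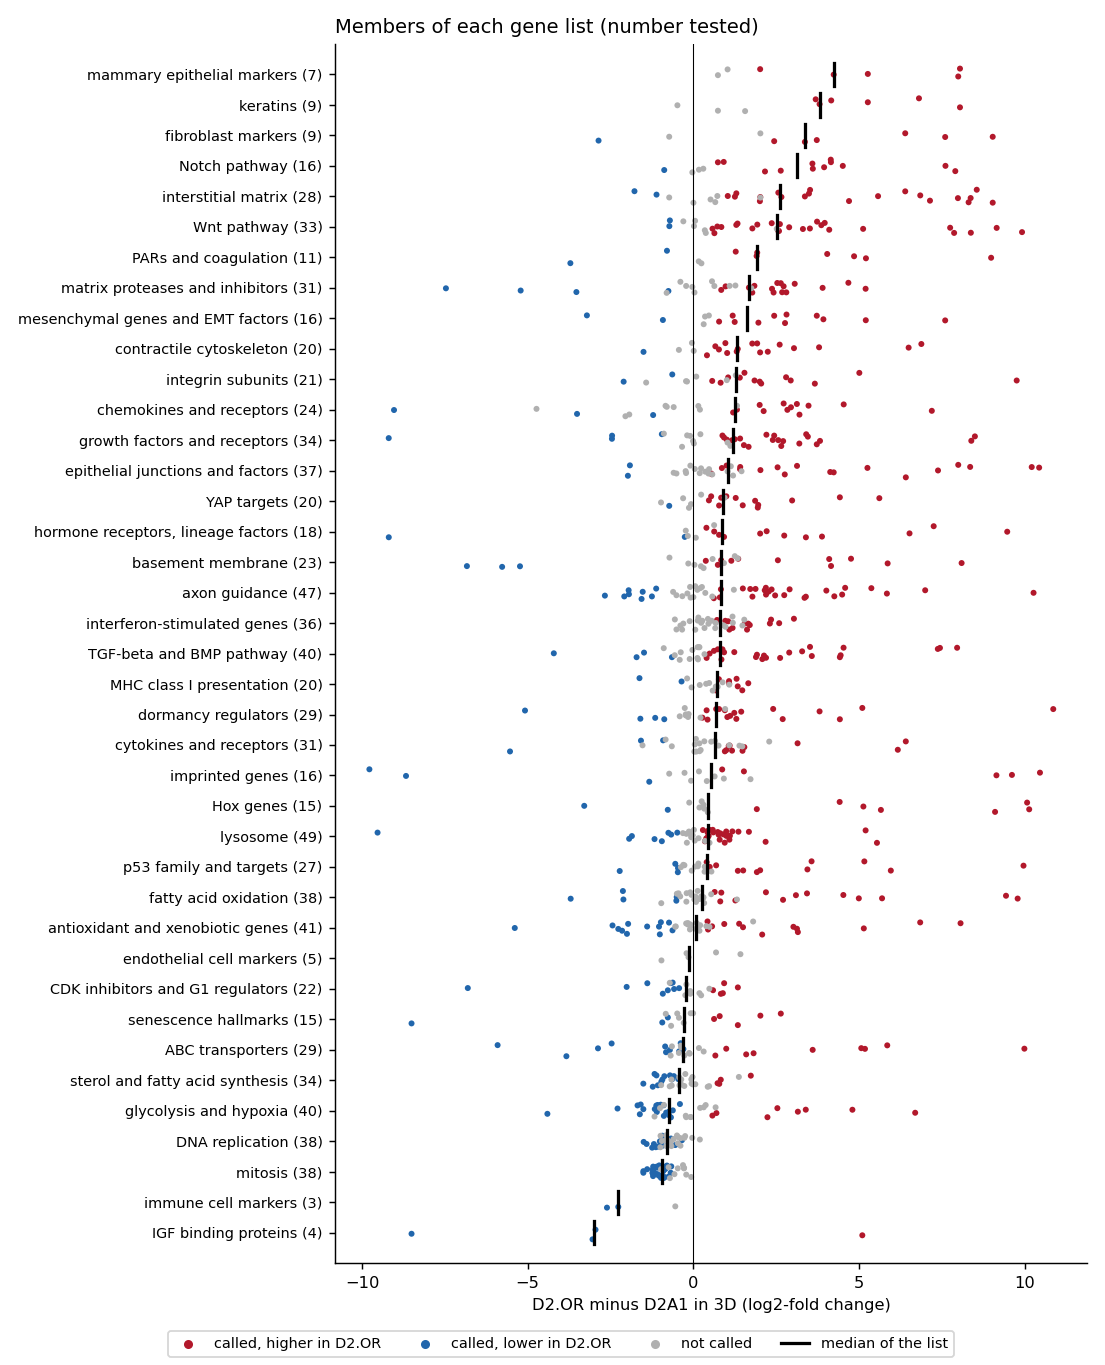
Log2-fold change of D2.OR minus D2A1 in 3D for each member of 39 gene lists, with the number tested in brackets. Points are coloured where the gene was called higher or lower, and a vertical bar marks the list's median. Interstitial matrix, Notch and Wnt genes lie mostly to the right, with medians of 2.61, 3.11 and 2.52, and mitosis, DNA replication and glycolysis genes to the left, with medians of -0.95, -0.80 and -0.73.

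Growth factor receptors and ligands were more often higher than lower in D2.OR, and ligands of Egfr were divided. Of 34 receptors and ligands of the ErbB, FGF, PDGF and related families, 21 were higher and 4 lower (2 lower without batch 2 or D2A1 3D replicate 1), 13 and 3 by the 4-fold rule, with a median of 1.21. Egfr, the EGF receptor gene, was at 0.993, 0.402 and 0.426 CPM in D2A1, against 294, 208 and 155 CPM in D2.OR, 361-fold higher (adjusted p = 8.45e-08). Erbb2 was at 39.5, 32.3 and 31.6 CPM against 581, 433 and 453 CPM, 14.1-fold higher (adjusted p = 4.78e-08). Erbb3 was low in both lines, at 0.199, 0.185 and 0.176 CPM against 3.75, 0.696 and 1.73 CPM (adjusted p = 0.00267). Of the Egfr ligand genes, Ereg and Tgfa were lower. Ereg, the epiregulin gene, was at 15.2, 79.6 and 80.9 CPM against 0.0166, 0.0158 and 0.236 CPM (-9.20 ± 0.70, adjusted p = 1.11e-05), and Tgfa at 11.1, 13 and 12.9 CPM against 3.55, 1.5 and 2.33 CPM (-2.46 ± 0.29, adjusted p = 1.38e-04). The lines did not overlap for any of these 5 genes, which were also picked by small p-values or the 4-fold rule. Hbegf, another ligand of Egfr, was higher, at 15, 7.23 and 6.57 CPM against 65.1, 59.2 and 48.8 CPM (2.65 ± 0.40, adjusted p = 5.7e-04). Of the other Egfr ligands in the list, named after their values were seen, Btc, Areg and Epgn were called higher (1.01 ± 0.29, 1.67 ± 0.61 and 1.41 ± 0.46, adjusted p = 0.0172, 0.043 and 0.0289) and 1 was not called. These calls were weak. Areg lost its call without batch 1 or 3 or any single library other than D2A1 2D replicates 2 and 3 and D2.OR 3D replicate 2, Btc without batch 2 or 3, D2A1 3D replicate 3 or D2.OR 3D replicate 2 or 3, and Epgn without any of the batches, D2A1 3D replicate 1 or 3 or any D2.OR 3D library, with adjusted p-values from 0.0502 to 0.229. Vegfc, a ligand of lymphatic vessel growth, was at 0.539, 0.0463 and 0.0882 CPM against 118, 54.9 and 39.9 CPM (8.39 ± 0.52, adjusted p = 3.51e-06), and Fgfr1, an FGF receptor gene, was 4.61-fold higher (adjusted p = 9.82e-05). Areg had a log2-fold change of 0.96 or 2.29 without D2.OR 3D replicate 1 or 2, in that order. Ereg had a log2-fold change of -8.43 or -11.44 without D2.OR 3D replicate 2 or 3, in that order. Vegfc had a log2-fold change of 9.46 without D2A1 3D replicate 1.

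All 4 IGF binding protein genes tested passed the 4-fold rule, 3 lower and 1 higher in D2.OR. Igfbp4, which sequesters IGFs, was at 184, 985 and 757 CPM against 40.8, 57.3 and 77.5 CPM (-3.04 ± 0.42, adjusted p = 3.35e-04). Igfbp7 was at 9.27, 11 and 10.2 CPM in D2A1 and had 5 counts over the 3 D2.OR libraries, a ratio of 379 (95% counting interval 162 to 1169). Igfbp6 was at 5.96, 3.6 and 4.4 CPM against 0.365, 0.569 and 0.819 CPM (-2.96 ± 0.35, adjusted p = 1.47e-04). Igfbp5 was higher, at 0.0284, 0.602 and 0.809 CPM against 3.53, 11.8 and 29.9 CPM (5.10 ± 0.76, adjusted p = 5.06e-04). All 4 had the same direction within each batch, as the 4-fold rule requires. Igfbp4 had a log2-fold change of -3.70 without D2.OR 3D replicate 1.

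Of 40 genes of the TGF-β and BMP pathway, 24 were higher in D2.OR and 4 lower, 14 and 1 by the 4-fold rule, with a median of 0.79. The ligand genes Tgfb2 and Tgfb3 were at 11.4, 2.33 and 2.37 and 33, 24.7 and 22.2 CPM in D2A1, against 121, 95.9 and 65.9 and 802, 549 and 412 CPM in D2.OR (adjusted p = 4.41e-05 and 8.42e-07). Inhbb, which encodes an activin chain, was at 0.312, 0.139 and 0.147 CPM against 50.6, 51.5 and 45.4 CPM (7.96 ± 0.39, adjusted p = 9.5e-07). Antagonists were higher in the same line, with the activin-binding Fst at 0.482, 0.896 and 1.23 CPM against 315, 114 and 82.5 CPM (7.38 ± 0.57, adjusted p = 1.23e-05) and the BMP-binding Chrd at 6.13, 1.67 and 0.941 CPM against 125, 31.6 and 35.2 CPM (4.53 ± 0.30, adjusted p = 5.39e-06). The ligand gene Bmp2 was low in D2A1 and lower in D2.OR, at 0.624, 0.51 and 0.485 CPM against 0.0995, 0 and 0 CPM (-4.21 ± 0.81, adjusted p = 0.00402). Bmp2 had a log2-fold change of -4.81 or -7.80 without D2A1 3D replicate 1 or D2.OR 3D replicate 1, in that order. Fst had a log2-fold change of 6.73 or 8.06 without D2A1 3D replicate 1 or 3, in that order.

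The Wnt list held 33 genes, of which 25 were higher in D2.OR and 2 lower, 17 and 0 by the 4-fold rule, with a median of 2.52. The lower count was 0 without batch 3 and 1 without batch 2, D2A1 3D replicate 2 or 3 or D2.OR 3D replicate 2 or 3. Rspo3, which strengthens Wnt signals at the receptor, was at 0.0851, 0.108 and 0.0882 CPM against 40.5, 71.4 and 52.6 CPM (9.15 ± 0.42, adjusted p = 6.83e-07). Fzd8, a Wnt receptor gene, had 2 counts over the D2A1 libraries and 11.7, 11.8 and 10.7 CPM in D2.OR, a ratio of 1155 (95% counting interval 319 to 9541), and Fzd4 was 14.5-fold higher (adjusted p = 6.95e-06). Axin2, a feedback target of the pathway, was at 20.2, 11.7 and 12.1 CPM against 73.6, 105 and 95.5 CPM (2.61 ± 0.28, adjusted p = 7.68e-05). Some members turned with the batch. Wnt4, named after its values were seen, was lower in D2.OR in batch 1 and higher in batches 2 and 3, at 57.3, 7.06 and 7.07 CPM against 20.6, 199.7 and 130.2 CPM, and did not pass the test (2.52 ± 1.28, adjusted p = 0.124). It passed as higher without batch 1 (4.50, adjusted p = 8.68e-06) and without replicate 1 of D2A1 in 3D (4.10, 0.00982), of D2.OR in 3D (3.61, 0.0265) or of D2.OR in 2D (3.02, 0.0499). Wnt4 also passed as higher with DESeq2's Wald test on all libraries (2.54, adjusted p = 0.042). Of 16 Notch pathway genes, 12 were higher and 1 lower, 10 and 0 by the 4-fold rule, with a median of 3.11. Receptors, ligand and targets were all among them. Notch4 was at 5.57, 3.29 and 1.9 CPM against 625, 663 and 644 CPM (7.61 ± 0.37, adjusted p = 9.54e-07) and Notch1 at 1.46, 0.278 and 0.441 CPM against 181, 147 and 173 CPM (7.90 ± 0.48, adjusted p = 2.93e-06). The ligand gene Jag1 was 12.1-fold higher (adjusted p = 5.32e-06), and the targets Hes1, Hey1 and Nrarp were 12.2-fold, 22.8-fold and 17.7-fold higher (adjusted p = 8.41e-07, 2.62e-05 and 1.02e-06). Lfng, which adds sugars to Notch receptors and was named after its values were seen, was the 1 lower gene (-0.88 ± 0.25, adjusted p = 0.0162). The Lfng call was lost without batch 2 (adjusted p = 0.135), batch 3 (0.0844), D2.OR 3D replicate 2 (0.0649) or D2.OR 3D replicate 3 (0.0607), and without D2A1 2D replicate 1 there were 2 lower Notch genes. Notch1 had a log2-fold change of 8.86 without D2A1 3D replicate 1.

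Of 47 genes of axon guidance ligands and receptors, 25 were higher in D2.OR and 8 lower (5 without batch 2 or 3), 18 and 2 by the 4-fold rule, with a median of 0.83. Sema3e had 5 counts over the D2A1 libraries and lay at 30.3, 29.1 and 39.6 CPM in D2.OR, a ratio of 1343 (95% counting interval 575 to 4137). Nrp1, a receptor for semaphorins and VEGF, was at 78.8, 18.7 and 21.7 CPM against 1247, 776 and 509 CPM (4.58 ± 0.45, adjusted p = 4.98e-05), while the Ephrin receptor gene Ephb2 was 6.37-fold lower (adjusted p = 9.92e-06). Hormone receptors and factors of the mammary lineage were higher for 12 of 18 genes and lower for 2, with 8 and 1 by the 4-fold rule and a median of 0.85. Leaving out any single batch, any 3D library or any D2.OR 2D library left 1 lower gene. Esr1, the oestrogen receptor α gene, was at 0.142, 0.0309 and 0.0588 CPM against 7.63, 8.44 and 6.07 CPM (6.52 ± 0.47, adjusted p = 7.92e-06). Gata3, a luminal factor gene, was 14.7-fold higher (adjusted p = 1.88e-04). Tbx3, a T-box repressor of mammary development, was restricted to D2A1, at 13.2, 14.5 and 13.2 CPM against 0.0166, 0.0158 and 0.0315 CPM, a ratio of 637 (95% counting interval 248 to 2339). Esr1 had a log2-fold change of 7.28 without D2A1 3D replicate 1.

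No mitosis or DNA replication gene was called higher in D2.OR in 3D, and many were lower, by moderate amounts. Of 38 mitosis genes, 28 were lower and 0 higher, none by the 4-fold rule, with a median of -0.95. Of 38 DNA replication genes, 18 were lower and 0 higher, with a median of -0.80. The number lower depended on the libraries. For mitosis it was 9 without batch 2, 17 without D2A1 3D replicate 2 or 3 and 16 without D2.OR 3D replicate 1. For DNA replication it was 34 without batch 1 or D2A1 2D replicate 1, 6 without batch 2, batch 3, D2A1 3D replicate 2 or D2.OR 3D replicate 1, and 7 and 9 without replicate 3 of D2A1 and of D2.OR in 3D. The share of all genes called lower was 26.1%. Hmmr, a spindle-associated gene, was at 85.6, 139.7 and 158 CPM against 30.5, 52.3 and 51.5 CPM (-1.51 ± 0.24, adjusted p = 7.63e-04). Nusap1 and Ndc80, which bind spindle microtubules and kinetochores, had log2-fold changes of -1.22 ± 0.18 and -1.16 ± 0.18 (adjusted p = 4.97e-04 and 7.08e-04). Rfc4, a clamp loader subunit of replication, was at 35.5, 44.9 and 50.5 CPM against 10.9, 17.8 and 18 CPM (-1.50 ± 0.16, adjusted p = 9.23e-05), and the licensing factor gene Cdt1 and the polymerase α subunit gene Pola2 had log2-fold changes of -0.94 ± 0.13 and -1.41 ± 0.20 (adjusted p = 3.79e-04 and 4.12e-04). Mki67, the Ki67 gene, was at 233, 355 and 405 CPM against 190.0, 319 and 308 CPM, and its difference did not pass the test (-0.28 ± 0.33, adjusted p = 0.496). In the fit of only the 3D libraries Mki67 passed as lower (-0.28, adjusted p = 0.0332), and its batch differences were -0.30, -0.16 and -0.40.

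Within each batch, the 3D difference in these genes had the same sign and a like size. The median difference of the mitosis list was -1.04, -0.85 and -0.98, and all 38 genes were lower in D2.OR in every batch. The DNA replication list had medians of -0.77, -0.68 and -0.95, with 36, 37 and 37 of 38 genes lower. In 2D the batches differed from one another. The mitosis medians there were -0.91, -0.12 and 0.49, with 38, 26 and 3 of 38 genes lower, and those of DNA replication were -1.11, 0.18 and 0.66, with 37, 15 and 7 genes lower. The summed level of the mitosis list was 2727, 4040 and 4362 TPM in D2A1 in 3D and 1479, 2425 and 2395 TPM in D2.OR in 3D. In 2D it was 2300, 2042 and 1538 TPM in D2A1 and 1167, 1769 and 2266 TPM in D2.OR. Batch 1 was the lowest library of each line in 3D, while in 2D it was the highest of D2A1 and the lowest of D2.OR. The interaction of line and culture, which tests whether the difference in 3D was unlike that in 2D, called 0 of 38 genes in either list with all libraries. Without batch 1 it called 29 of 38 mitosis genes and 30 of 38 DNA replication genes, and without D2A1 2D replicate 1 alone it called 33 in each, with medians of -1.15 and -1.10, all towards a more negative difference in 3D.

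**Figure D4:**
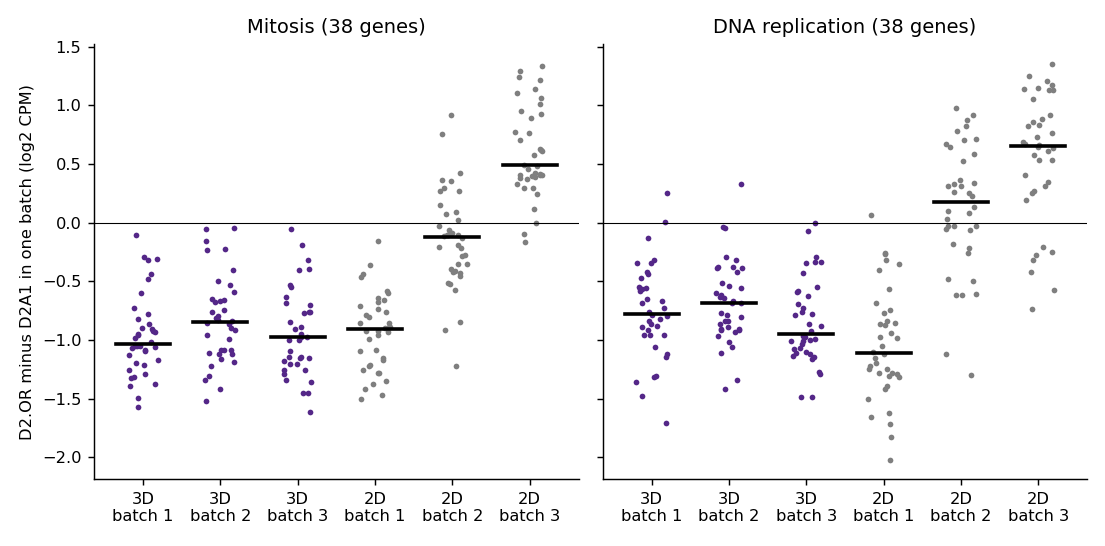
Difference between D2.OR and D2A1 within each batch in log2 CPM for the 38 mitosis genes and the 38 DNA replication genes, in 3D and in 2D, with a bar for the median. In 3D the medians lie between -1.04 and -0.68 in all batches, and in 2D they run from -1.11 in batch 1 to 0.66 in batch 3.

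Regulators of G1 showed no common direction. Of 22 CDK inhibitors and G1 regulators, 5 were higher and 9 lower in D2.OR (22.7% and 40.9%, against 27.7% and 26.1% of all genes), with a median of -0.23. The higher count was 1 without batch 2, 2 without D2A1 3D replicate 2 or 3 and 3 without batch 3 or D2.OR 3D replicate 3, and the lower count was 5 without batch 2. Ccnd2, the cyclin D2 gene, was at 233, 154 and 155 CPM against 1.94, 1.68 and 1.2 CPM, 112-fold lower (adjusted p = 2.91e-08), and the lines were apart by far more than their spread. E2f2, an activator of S phase genes, was 4.04-fold lower (adjusted p = 1.61e-04), and the CDK4/6 inhibitor gene Cdkn2c 2.62-fold lower (adjusted p = 3.24e-05). Cdkn2a, which encodes p16 and p19Arf, was at 279, 168 and 174 CPM against 138, 109 and 109 CPM (-0.77 ± 0.10, adjusted p = 1.85e-04), with every D2.OR library below every D2A1 library. Cdkn1a, the p21 gene, was higher at 46.4, 23.8 and 26.6 CPM against 105, 69.9 and 64.3 CPM (1.34 ± 0.27, adjusted p = 0.00288). Cdkn1b, the p27 gene, did not pass the test, at 88.3, 72.5 and 66.9 CPM against 68.8, 73.3 and 71.7 CPM (-0.09 ± 0.20, adjusted p = 0.709).

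Trp53, the gene of the tumour suppressor p53, was at 18.9, 19.9 and 23.7 CPM in D2A1, against 1262, 1273 and 1352 CPM in D2.OR, 62.2-fold higher (adjusted p = 1.25e-07). The spread within a line was small beside this gap. These are RNA levels, and in 2D the study detected no p53 protein in either line. Nutlin-3, which stabilizes p53, raised neither p21 nor MDM2 in them, and the study proposes that both lines lack functional p53. Mdm2, a p53 target that degrades p53, was 1.4-fold higher (adjusted p = 8.07e-04), from 46.2, 49.4 and 52.8 CPM to 63.5, 70.3 and 74.2 CPM. Of 27 genes of the p53 family and its targets, 13 were higher and 4 lower (2 without batch 2 or 3), 6 and 1 by the 4-fold rule, with a median of 0.40. These are 48.1% and 14.8%, against 27.7% and 26.1% of all genes. Pmaip1, the gene of the death protein Noxa, had 1 count over the D2A1 libraries and 10.1, 4.96 and 6.07 CPM in D2.OR, a ratio of 1422 (95% counting interval 255 to 56191). Phlda3 and Perp were 10.9-fold and 11.8-fold higher (adjusted p = 5.32e-06 and 1.98e-05). Of the gene products assayed in the study, Glb1, the lysosomal β-galactosidase gene, was higher (0.79 ± 0.17, adjusted p = 0.00331) and Rps6kb1, the S6 kinase gene, was lower (-0.34 ± 0.08, adjusted p = 0.00782). The Glb1 call was lost without batch 2 (adjusted p = 0.0552), and that of Rps6kb1 without batch 2 (0.0652) or batch 3 (0.0756). Lmnb1, the lamin B1 gene, and H2afx, the gene of a histone phosphorylated at DNA breaks, did not pass the test (-0.67 ± 0.36, adjusted p = 0.145, and -0.29 ± 0.18, adjusted p = 0.196). Both passed as lower without batch 1 (-0.60, adjusted p = 0.00991, and -0.47, adjusted p = 0.043), and Lmnb1 also without D2A1 2D replicate 1 (-0.70, 0.0031) and with only the 3D libraries (-0.69, 0.00745).

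Of 15 senescence genes, 5 were higher and 3 lower, near the 27.7% and 26.1% of all genes, with a median of -0.29. The lower count was 6 without batch 1 and 7 without D2A1 2D replicate 1. Of 29 dormancy regulators, 17 were higher (11 without batch 2 or 3) and 4 lower (7 without batch 1 and 2 without batch 2), 6 and 1 by the 4-fold rule, with a median of 0.69. These are 58.6% and 13.8%, against 27.7% and 26.1% of all genes. Over all genes, the number called higher fell from 4655 to 2894 without batch 2 and to 3204 without batch 3. Gas6, a ligand of the TAM receptor kinases, was at 0.17, 0.108 and 0.0441 CPM against 411, 209 and 62.1 CPM (10.86 ± 0.52, adjusted p = 8.12e-07), and its receptor gene Mertk at 13, 0.309 and 0.118 CPM against 64.7, 10.6 and 6.05 CPM (3.81 ± 0.61, adjusted p = 7.93e-04). Both were highest in batch 1 in each line, and D2.OR was above D2A1 in each batch, although Mertk in D2A1 batch 1 lay above D2.OR batches 2 and 3. Dyrk1b, a kinase gene linked to quiescence, was lower in D2.OR, at 33.8, 22.2 and 16 CPM against 0.68, 0.585 and 0.851 CPM (-5.08 ± 0.33, adjusted p = 4.79e-06). Cd82, a tetraspanin gene, was 5.3-fold higher (adjusted p = 1.22e-05). Mertk had a log2-fold change of 5.14 without D2A1 3D replicate 1.

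Of 24 chemokine and receptor genes, 12 were higher in D2.OR and 3 lower, 9 and 1 by the 4-fold rule, with a median of 1.26. The lower count was 9 without batch 1, 8 without D2A1 3D replicate 1, 6 or 5 without D2A1 2D replicate 1 or 2 and 5 without D2.OR 3D replicate 1. Cxcl12, the ligand of Cxcr4, was at 7.84, 2.58 and 2.1 CPM in D2A1 and had 1 count over the D2.OR libraries, a ratio of 794 (95% counting interval 142 to 31399). The membrane-bound chemokine genes Cxcl16 and Cx3cl1 were 11.1-fold and 9.2-fold higher (adjusted p = 6.35e-06 and 4.83e-04). Of 31 cytokine and receptor genes, 10 were higher (6 without batch 2 and 4 without batch 3), near the 27.7% of all genes, and 3 lower (6 without batch 1 and 1 without batch 2), with a median of 0.65. Il33, an alarmin gene of epithelial and stromal cells, was at 0.255, 0.757 and 0.544 CPM against 49.995, 40.7 and 30.7 CPM (6.41 ± 0.46, adjusted p = 8.0e-06). Csf3, the G-CSF gene, named after its values were seen, was lower by the test (-5.54 ± 1.41, adjusted p = 0.00906) but rested on batches 2 and 3, at 0.383, 77.7 and 61 CPM against 0.448, 0.269 and 1.18 CPM, and did not pass without either of them (adjusted p = 0.131 and 0.132) or with only the 3D libraries (0.063). Cd14, a co-receptor for bacterial lipopolysaccharide, was at 25.2, 166 and 150.1 CPM against 6.28, 19.8 and 45.6 CPM (-2.27 ± 0.35, adjusted p = 6.72e-04). Csf3 had a log2-fold change of -6.58, -4.50, -6.14 or -4.55 without D2A1 3D replicate 1 or 2 or D2.OR 3D replicate 1 or 2, in that order.

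Interferon-stimulated genes differed with the batch. Of 36, 13 were higher in D2.OR (36.1%, against 27.7% of all genes) and 0 lower (against 26.1%), with a median of 0.81. However, the median difference of these interferon-stimulated genes was -0.33 in batch 1 and 1.67 and 1.51 in batches 2 and 3. Their summed level was 9057, 2213 and 1952 TPM in D2A1 and 6784, 4005 and 3514 TPM in D2.OR, so batch 1 was the highest in both lines and D2A1 led there. The number higher was 30 without batch 1 and 27 without D2A1 3D replicate 1. It was 8 when D2A1 2D replicate 2 was left out, 3 without D2.OR 3D replicate 2 or 3 and 2 without batch 2, batch 3 or D2A1 3D replicate 2 or 3, and 1 gene was lower without D2A1 3D replicate 3. Ifit3, an antiviral gene, was at 79.5, 1.87 and 1.51 CPM against 95.8, 43 and 31.6 CPM (2.59 ± 0.83, adjusted p = 0.0259). Its call was lost without batch 2 or 3 (adjusted p = 0.24 and 0.147), D2A1 3D replicate 2 or 3 (0.109 and 0.0822) or D2.OR 3D replicate 2 or 3 (0.079 and 0.0562), and with only the 3D libraries (0.0707). Mx1, an antiviral GTPase gene, was higher in D2.OR in each batch, with differences of 1.46, 4.07 and 3.92 (3.03 ± 0.47, adjusted p = 6.23e-04). Of 20 genes of MHC class I presentation, 8 were higher (40%) and 2 lower (10%), against 27.7% and 26.1% of all genes. None met the 4-fold rule, and the median was 0.70, with batch medians of 0.16, 0.98 and 1.0. The higher count was 16 without batch 1, 14 and 5 without replicates 1 and 2 of D2A1 in 3D, 4 without batch 3 and 0 without batch 2, and the lower count was 1 without batch 2, batch 3, D2A1 3D replicate 2 or 3 or D2.OR 3D replicate 1 or 2. B2m, the light chain gene, was at 586, 201 and 182 CPM against 975, 552 and 390.3 CPM (1.08 ± 0.23, adjusted p = 0.00336), and the lines overlapped through D2A1 batch 1. Without batch 2 the B2m call was lost (adjusted p = 0.0793). Ifit3 had a log2-fold change of 4.29, 1.92, 1.89 or 3.32 without D2A1 3D replicate 1, 2 or 3 or D2.OR 3D replicate 1, in that order. Mx1 had a log2-fold change of 3.88 without D2A1 3D replicate 1.

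Glycolysis and hypoxia genes were mostly lower in D2.OR. Of 40, 8 were higher and 21 lower, 6 and 2 by the 4-fold rule, with a median of -0.73. Tpi1, an enzyme of lower glycolysis, was at 610.0, 1035 and 819 CPM against 213, 263 and 278 CPM (-1.69 ± 0.11, adjusted p = 5.9e-06), and Ldha and Pgk1, named after their values were seen, had log2-fold changes of -1.10 ± 0.16 and -1.11 ± 0.13 (adjusted p = 3.88e-04 and 1.47e-04). Car12, a carbonic anhydrase gene, stood against this direction at 2.96, 5.58 and 4.69 CPM against 343, 434 and 559.5 CPM (6.69 ± 0.37, adjusted p = 1.77e-06). Egln3, an oxygen sensor of the hypoxia pathway, was 21.2-fold lower (adjusted p = 5.79e-06). Sterol and fatty acid synthesis genes were higher for 4 of 34 (11.8%) and lower for 12 (35.3%), against 27.7% and 26.1% of all genes. None met the 4-fold rule, and the median was -0.42. The lower count was 4 without batch 3, 5 without D2A1 3D replicate 2 and 6 and 7 without D2.OR 3D replicates 1 and 3, and the higher count was 7 without batch 1 and 1 without batch 3. Their master factor Srebf2 was at 395, 512 and 468 CPM against 208, 206 and 219.9 CPM (-1.12 ± 0.15, adjusted p = 2.49e-04).

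Fatty acid oxidation genes were higher for 13 of 38 and lower for 5, with a median of 0.26 against 0.00 for all genes, and the 34.2% higher compares with 27.7% of all genes. Without batch 2 or 3, 8 were higher, and the lower count was 3 without batch 3 or D2.OR 3D replicate 1 or 3 and 9 without D2.OR 3D replicate 2. Pdk4, a kinase that shuts pyruvate out of the mitochondrial cycle, was at 0.128, 0.0154 and 0.0441 CPM against 81.3, 51.3 and 26.4 CPM (9.79 ± 0.37, adjusted p = 2.3e-07), and the lipid uptake gene Cd36 at 0, 0.0927 and 0.0147 CPM against 1.19, 60.1 and 20.4 CPM (9.44 ± 0.75, adjusted p = 1.49e-05). Cpt1c, a brain form of carnitine palmitoyltransferase, was lower, at 19.4, 17.2 and 14.7 CPM against 1.59, 1.22 and 1.13 CPM (-3.70 ± 0.20, adjusted p = 1.56e-06). Lysosome genes were higher for 29 of 49 and lower for 8, with a median of 0.43. Without batch 2, 17 were higher and 2 lower, and the lower count was 3 without D2A1 3D replicate 2 or D2.OR 3D replicate 2 and 4 without batch 3 or D2.OR 3D replicate 3. The protease gene Ctsc was at 12.7, 16.4 and 17.3 CPM against 1037, 636 and 594 CPM (5.54 ± 0.28, adjusted p = 1.2e-06), while Cln8 was nearly silent in D2.OR, at 28.1, 29 and 29.9 CPM against 0.0166, 0.0158 and 0.0788 CPM (-9.53 ± 0.44, adjusted p = 6.83e-07). Cd36 and Cln8 had log2-fold changes of 8.83 and -10.61 without D2.OR 3D replicate 3.

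By adjusted p alone, the shares of transporter and detoxifying genes called in each direction stood near those of all genes tested. Of the latter, 27.7% were higher and 26.1% lower. By the 4-fold rule, 17.2% of ABC transporter genes were higher and 13.8% lower. Those shares were 17.1% and 12.2% for antioxidant and xenobiotic genes, and 9.81% and 4.02% for all genes. Of 29 ABC transporter genes, 9 were higher in D2.OR and 10 lower (5 without batch 2), 5 and 4 by the 4-fold rule, with a median of -0.30. The drug efflux pump genes Abcb1b and Abcb1a were at 0.0425, 0.0927 and 0.0735 and 0.468, 1.45 and 1.94 CPM in D2A1, against 53.5, 77 and 84.6 and 10.1, 58.5 and 75.9 CPM in D2.OR (log2-fold changes 9.99 ± 0.40 and 5.07 ± 0.50, adjusted p = 3.04e-07 and 4.96e-05). Another drug pump gene, Abcg2, was lower at 26.5, 26 and 21.9 CPM against 4.86, 4.33 and 4.24 CPM (-2.47 ± 0.15, adjusted p = 3.75e-06), and Abcc4, which exports cyclic nucleotides and drugs, lower at 21.4, 29.3 and 27.2 CPM against 0.166, 0.585 and 0.615 CPM (-5.91 ± 0.43, adjusted p = 8.32e-06). Abcb1a and Abcb1b are close copies and may share reads. Of 41 antioxidant and xenobiotic genes, 13 were higher (8 without batch 2) and 12 lower, 7 and 5 by the 4-fold rule, with a median of 0.09. Gstt1, a glutathione transferase gene, was at 0.199, 0.232 and 0.118 CPM against 38.4, 49.7 and 59.1 CPM (8.06 ± 0.38, adjusted p = 8.16e-07). Slc7a11, the cystine importer gene, was at 144, 921 and 985 CPM against 80.3, 119.7 and 221 CPM (-2.01 ± 0.41, adjusted p = 0.00313), with a smaller difference in batch 1 than in the other batches, and did not pass without batch 3 (adjusted p = 0.0533).

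Several Hox and imprinted genes were nearly silent in 1 of the lines. Of 15 Hox genes, which record position along the body axis, 7 were higher in D2.OR and 2 lower (1 without batch 2), 6 and 1 by the 4-fold rule, with a median of 0.43. These are 46.7% and 13.3%, against 27.7% and 26.1% of all genes. Hoxc6 had 1 count over the D2A1 libraries and 6.35, 8.3 and 8.9 CPM in D2.OR. Hoxc4 and Hoxc5, its neighbours, had no counts in D2A1 and were at least 49.5-fold and at least 25.3-fold higher in D2.OR. Hoxa9 was at 0.851, 0.865 and 1.16 CPM against 38.6, 53.3 and 52.9 CPM (5.66 ± 0.17, adjusted p = 5.76e-08). Among 16 imprinted genes, 5 were higher and 3 lower, near the 27.7% and 26.1% of all genes, and 3 and 2 by the 4-fold rule. Peg13 was at 0.0709, 0.0927 and 0.0882 CPM against 104, 60.9 and 44.6 CPM (9.61 ± 0.30, adjusted p = 8.17e-08), and Zrsr1 at 0.113, 0.0463 and 0.0294 CPM against 38.7, 36.3 and 34.7 CPM (9.15 ± 0.26, adjusted p = 4.87e-08). Snrpn had no count in D2A1 and lay at 3.12, 3.89 and 1.83 CPM in the other line, at least 66.4-fold higher there, and Peg3 and Usp29 went the other way as given above. Zrsr1 had a log2-fold change of 9.75 without D2A1 3D replicate 1.

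The line difference also varied by chromosome, a feature that the choice of libraries did not use. The median log2-fold change was highest on chromosome 10, at 0.57, where 51.6% of genes were called higher and 8.23% lower. It was lowest on chromosome 3, at -0.32, where 18.2% were called higher and 39.7% lower. The chromosome 10 median was 0.58, 0.55 and 0.54 within the batches, and that of chromosome 3 was -0.34, -0.27 and -0.29. Both had medians in 2D of like size, 0.56 and -0.37. Chromosomes 8, 18, 14 and 7 had medians of 0.34, 0.31, 0.27 and 0.20, and chromosomes 11, 16, 6 and X had medians of -0.27, -0.25, -0.24 and -0.23. With only the genes at 10 CPM or more in both lines, the medians of chromosomes 10 and 3 were 0.48 and -0.43. The study karyotyped both lines, which was not used here, and the part of chromosome copies in these medians was not tested.

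**Figure D5:**
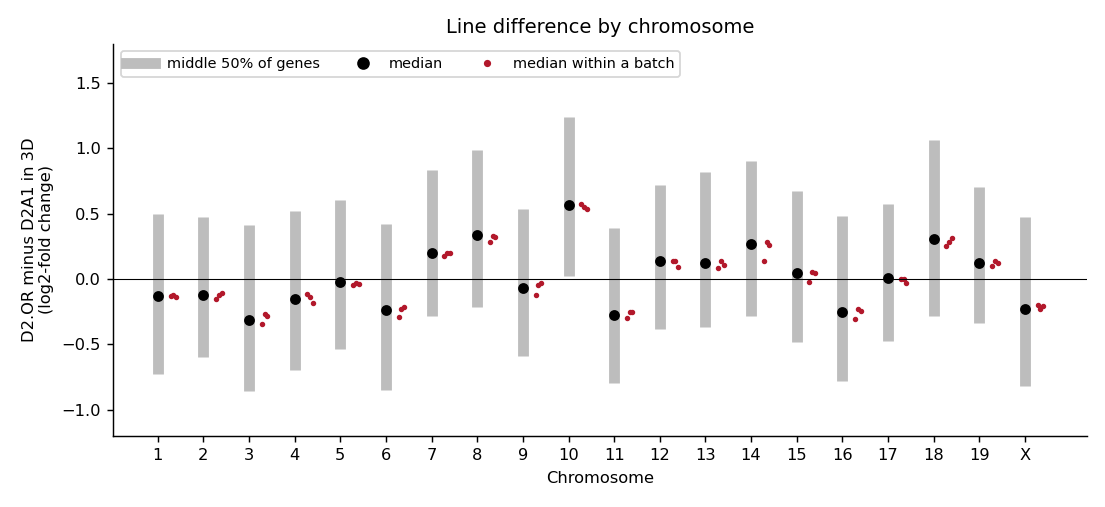
Log2-fold change of D2.OR minus D2A1 in 3D by chromosome, with a grey bar for the middle 50% of genes, a black point for the median and small points for the median within each batch. Chromosome 10 has the highest median, 0.57, and chromosome 3 the lowest, -0.32, and the batch medians lie close to the pooled ones.

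Beside the 2D libraries, most large differences were found in both cultures. The 4-fold rule held for 2275 genes in 2D, and 1743 of these met it in 3D in the same direction, which is 74.9% of the 3D genes and 76.6% of the 2D genes. Only 4 genes met it in both cultures with opposite directions. In 191 genes of the 3D list the estimated difference in 2D was under 2-fold, and in 51 it pointed the other way. Whether a difference in 3D was unlike that in 2D was tested by the interaction, which called 4 genes (0.0238% of those tested) with all libraries, although 2997 genes had an unadjusted p under 0.05. The count depended on batch 1. Without batch 1 it was 2999 genes (17.8%) and without D2A1 2D replicate 1 alone 2509 genes (14.5%), whereas without batch 2 or batch 3 it was 0, and with all libraries DESeq2's Wald test called 978 genes and edgeR without the batch term 0. A gene that passed the test in 3D is therefore not shown to be particular to 3D here.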

How the data were processed

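RNA-seq libraries were made from both lines on plastic and on Matrigel, with 3 libraries in each of 4 groups. The authors checked reads with FastQC 0.11.4, trimmed them with Trimmomatic 0.32, aligned them with STAR 2.5.3 to the mouse genome with GENCODE annotation on GRCm38, and quantified genes with RSEM 1.3.0. The deposited files hold RSEM's expected counts per gene, which share reads among genes by estimate and are not normalized, and TPM, which the authors' RSEM run scaled by transcript length and library. Reads from close gene copies may be split, so the values of such genes are less certain.

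Values in expected counts were rounded to integers and tested with edgeR 4.0.16 (quasi-likelihood test, TMM factors, filterByExpr) in R 4.3.3, with a term for each group and the batch as a replicate block over all 12 libraries. The contrast was D2.OR minus D2A1 in 3D, and the interaction set this against the same contrast in 2D. An adjusted p under 0.05 made a call. CPM, log2-fold changes and batch differences came from this fit or its normalization factors. The code was tested on simulated data. The labels give the replicate number as the batch. Deviations from group means correlated at 0.0758 to 0.511 within a batch, with a median of 0.267. Between batches they correlated at -0.432 to 0.296, with a median of -0.195. Deviations from a group's own mean cancel out, so a negative median between batches is partly forced. Alternatives were DESeq2 1.42.0, limma 3.58.1 on log2(TPM + 1) and log2(TPM + 0.1), other normalizations and filters, only the 3D libraries, no block, and leaving out each batch and library in turn. Depth of 61440030 counts or more per 3D library puts 3 counts, the floor used here, below 0.05 CPM, and 95% intervals of ratios, from exact Poisson counts, cover counting error only.

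The members and gene lists were chosen with earlier results of these data known. Genes were named if they were among the 8 largest differences in each direction (called, the same direction in all batches, at least 10 CPM in the higher line, not a predicted gene), the 5 largest TPM differences in each direction, the 3 smallest p-values in a list, the gene products assayed in the study or the interaction calls. Other list members past the 4-fold rule could also be named, and exceptions are marked. A few genes that met these rules are not reported here. Promoter sequence is from a RefSeq table.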

Additional observations from a re-analysis of the deposited data

Results flagged for a closer look

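For 4 genes, a line difference in 3D was unlike that in 2D by the interaction test of edgeR over all libraries. Chst1, a keratan sulfate sulfotransferase gene, was lower in D2.OR in both cultures but by less in 3D, with means in D2A1 and D2.OR of 13.3 ± 8.14 and 0.634 ± 0.43 CPM in 3D (SD, n = 3) and 36 ± 21.5 and 0.184 ± 0.119 CPM in 2D, an interaction of 3.18 ± 0.22 on the log2 scale (SE, adjusted p = 0.00194). Sstr2, a somatostatin receptor gene, was at 0.152 ± 0.0687 against 1.34 ± 0.367 CPM in 3D and 0.734 ± 0.302 against 0.508 ± 0.185 CPM in 2D, an interaction of 3.70 ± 0.37 (adjusted p = 0.0271). Aldh1a7, an aldehyde dehydrogenase gene, was higher in D2.OR in 3D and lower in 2D, an interaction of 7.21 ± 0.79 (adjusted p = 0.0318), and its 3D levels of 8.58, 0.0772 and 0.176 CPM (D2A1) and 78.5, 1.71 and 0.52 CPM (D2.OR) rested mainly on batch 1. It has close copies, so its counts are uncertain. Dnajc22, a chaperone gene, was at 13.2 ± 2.9 against 2.13 ± 0.376 CPM in 3D and 8.74 ± 0.61 against 6.94 ± 1.29 CPM in 2D, an interaction of -2.27 ± 0.25 (adjusted p = 0.0318). All 4 lost the call without batch 2 (adjusted p = 0.847), without batch 3 (0.369 to 0.642) and without the replicate block (0.126 to 0.399), and Chst1 and Aldh1a7 also with limma on log2(TPM + 1) (0.153 and 0.126) and Chst1 on log2(TPM + 0.1) (0.0663). Chst1 kept it without any single library (0.00233 to 0.029). Sstr2 and Dnajc22 kept it only without replicate 1 of D2A1 in 2D, of D2A1 in 3D or of D2.OR in 3D, and Aldh1a7 without these or D2.OR 3D replicate 3, and without each of the other libraries their adjusted p was 0.068 to 0.176. These are 4 of 16823 genes tested, with a positive interaction in 3 and a negative in 1, and no cause was tested.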

How the results depend on the processing

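Of 193 called genes named in the text, none changed direction in any of the at most 24 settings that tested it. The threshold was passed by 172 of them in each setting that tested them. Cdkn1b, which was not called, was at -0.093 and turned positive with limma (0.049 and 0.050 with pseudocounts of 1 and 0.1), without batch 1 (0.058) and without D2A1 3D replicate 1, in a range of -0.23 to 0.083 over the fits without a batch or library. Without the replicate block, 8037 genes were called instead of 9044, of which 7936 were called in both, the interaction called 0 genes, and Aldh1a7, Areg, B2m, Btc, Ifit3, Lfng, Loxl4, Mertk and Vim lost their calls, while no other gene named lost or gained one. The 4-fold rule gave 785 genes (612 higher and 173 lower) with limma on log2(TPM + 1), 434 lower genes with log2(TPM + 0.1), and 1294 genes (945 and 349) with a filter at a mean of 1 CPM, which removes low genes. The 3D calls of Aldh1a7, Bgn, Erbb3, Nid1 and Pi16 were lost with limma on log2(TPM + 1) (adjusted p = 0.0561, 0.104, 0.0851, 0.116 and 0.236). Bgn and Pi16 also lost theirs on log2(TPM + 0.1) (0.0932 and 0.0614). Areg lost its call with library totals alone (0.0513) and with only the 3D libraries (0.131), and Epgn with no filter (0.0547). The interaction called 13 and 9 genes with limma on the larger and the smaller pseudocount, 96 with no filter and 978 with DESeq2. Genes restricted to D2.OR and D2A1 numbered 52 and 21 with a floor of 10 counts and 37 and 25 with a minimum of 5 CPM. With library totals alone the median of all genes was -0.10, and the medians of chromosomes 10 and 3 were 0.46 and -0.42. With only genes at 10 CPM in both lines these were 0.48 and -0.43. Over the fits without 1 batch or library, the calls ran from 5273 to 10298 (2894 to 5202 higher and 2379 to 5096 lower), the 4-fold calls from 2019 to 2571 (1428 to 1824 and 591 to 747), and the interaction from 0 to 2999. Lists with more higher than lower genes numbered 28 to 31 of 39. Without 1 library, the fold of 58 of these 193 genes moved by over 1.5 times, of which 22 had at most 3 counts per 3D library in a line. The causes of these changes were not tested. The depth limits statements on genes at a few counts in a line, so no fitted fold is given where all 3 libraries of a line held at most 3 counts, and fitted values just above that floor depend on the prior count.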
